A study of Homo sapiens with 22 samples.

Results

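The end states of a 30-day drug treatment were compared between GIMEN and SK-N-AS. Both are established cell lines from human neuroblastoma, labelled as mesenchymal. The members were 7 of the 22 libraries of the study, 4 of treated SK-N-AS and 3 of treated GIMEN, chosen by their labelled line and day. Treated SK-N-AS cells (S2D30) had received 5 µM PP121 in 1% serum for 4 days and then 5 µM PP121 with 100 nM bufalin for 30 days in Neurobasal medium with B27 and no serum. Treated GIMEN cells (D30) had received 2.5 µM PP121 with 10 nM bufalin for 30 days in RPMI with 1% fetal bovine serum, with no earlier stage. Both doses, the medium, the serum and the earlier stage therefore differed along with the line, and these cannot be told apart in any difference given here. Untreated SK-N-AS in DMEM with 10% serum (n = 4) and untreated GIMEN in RPMI with 10% serum (n = 3) gave the line difference without drug, and they share no library with the comparison at 30 days.

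Neuroblastoma arises from the sympathetic branch of the neural crest. Its cells are commonly placed between an adrenergic state, set by transcription factors such as HAND2, GATA3 and ISL1, and a mesenchymal state with PRRX1, SNAI2 and AP-1 factors. PP121 inhibits tyrosine kinases and kinases of the PI3K family. Bufalin is a cardiac glycoside, which blocks the sodium pump of the plasma membrane.

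Treated SK-N-AS libraries held 19956878 to 22783860 counts and treated GIMEN libraries 16456484 to 19002482. Levels are given as CPM (counts scaled to library size) after TMM scaling, and a line difference is log2 of SK-N-AS over GIMEN with its standard error (SE), tested with edgeR's quasi-likelihood test with Benjamini-Hochberg adjustment over 16246 genes. The labels do not say that replicates were separate cultures, so p-values measure only the spread between these libraries, which may be technical. Across all tested genes, Pearson's r of log2 CPM was on average 0.9903 within treated SK-N-AS and 0.9871 within treated GIMEN. It was 0.8005 between the lines at 30 days (12 pairs, 0.7978 to 0.8039) and 0.773 between the untreated lines (0.7692 to 0.7767). Of the labelled mesenchymal markers, VIM, CD44, NT5E and FOSL2 were above the detection floor in every treated library of both lines, and of the adrenergic markers GATA3 and HAND2 were above it in both lines, while PHOX2A was at the floor in GIMEN.

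Most genes differed between the end states. At an adjusted p under 0.05, 6175 genes (38%) were higher in SK-N-AS and 5516 (34%) were higher in GIMEN, together 72% of the genes tested. The libraries of both lines did not overlap for 12076 genes (74.3%). Among the called genes, the difference was at least 2-fold for 3617 higher in SK-N-AS and 2857 higher in GIMEN, and at least 8-fold for 1626 and 723. In untreated cells 6271 (38.6%) and 5738 (35.3%) genes were higher in SK-N-AS and in GIMEN (73.9% together), and the median size of the log2 difference was 0.84, against 0.796 at 30 days. A difference was called at both times for 9233 genes, of which 7950 had the same direction and 1283 the opposite one. The change of the line difference between untreated and 30-day cells, tested as an interaction, was called for 8069 genes (49.7%), and it made the difference smaller for 4368 and larger for 3701.

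**Figure D1:**
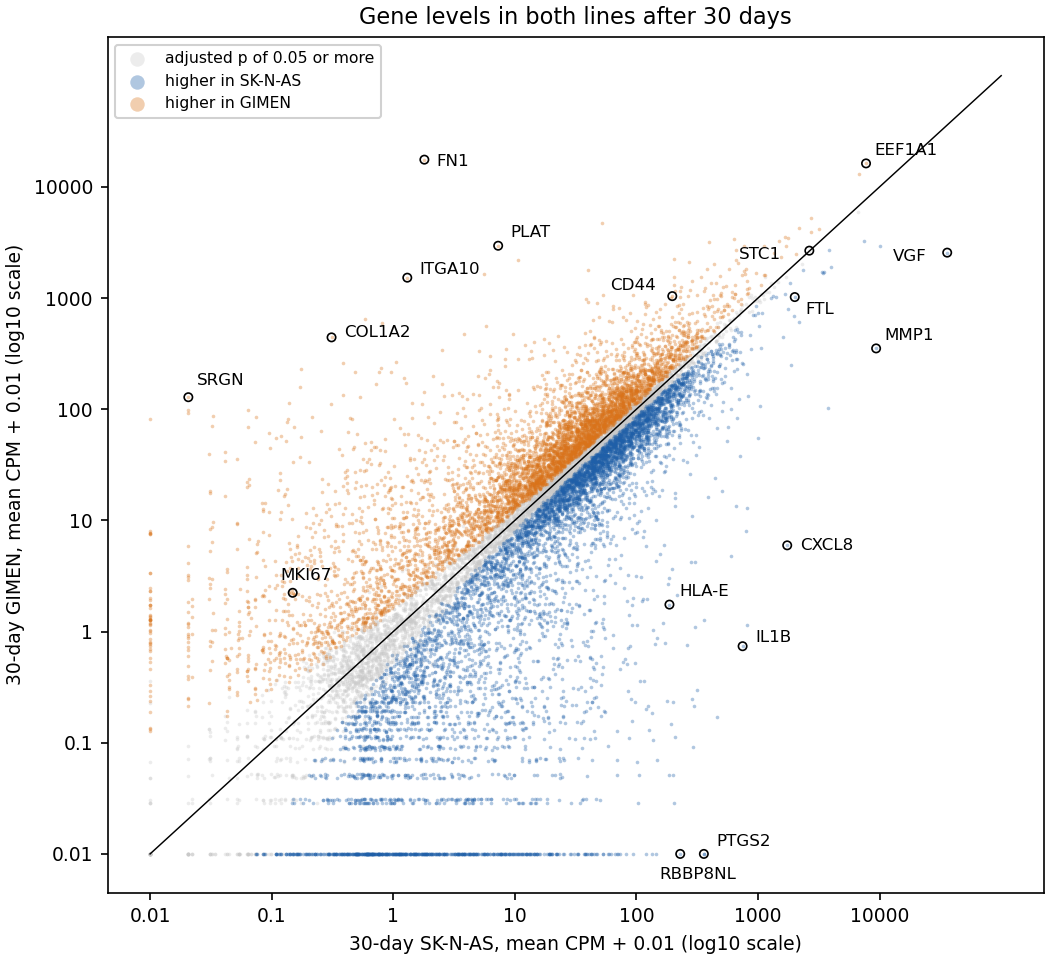
Mean CPM of each gene in treated SK-N-AS (horizontal, n = 4) and treated GIMEN (vertical, n = 3), both on log10 axes after adding 0.01, with the diagonal of equal levels; each point is a gene and colours mark the called direction. STC1 lies on the diagonal, FN1 and ITGA10 lie far to the GIMEN side and VGF, MMP1 and CXCL8 to the SK-N-AS side, and genes at 0 in GIMEN form the line at the bottom.

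A common set of abundant genes was shared. Ranked by CPM per kilobase of exon, 173 genes were among the top 300 in each of the 7 treated libraries, which was 63.4% of the 273 genes that met this in all SK-N-AS libraries and 64.8% of the 267 in all GIMEN libraries. They comprised 44 ribosomal protein genes, 13 mitochondrial genes, 114 other protein-coding genes and 2 annotated as pseudogenes (GPX1 and RPL9P9), and 124 of the 173 also met the rule in all untreated libraries. Shared rank was not equal level: 41 of the 173 were higher in SK-N-AS, 69 were higher in GIMEN, and 60 were close. A gene is called close where the 95% interval of its difference lay within 1.5-fold either way, which held for 3278 genes, 20.2% of those tested. Closeness and a call do not exclude each other: 968 of the close genes also had a called, small difference, and they are counted under both wherever both counts are given.

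VGF, a secreted neuropeptide precursor of dense-core vesicles, was the gene with the most counts in every treated SK-N-AS library. It took 3.64 to 3.93% of their counts and 0.224 to 0.272% in treated GIMEN. Its level was 34990, 36927, 38091 and 33864 CPM in treated SK-N-AS and 2942, 2415 and 2322 CPM in treated GIMEN. The groups did not overlap (log2 difference 3.81 ± 0.20 SE, edgeR adjusted p = 2.2e-10), although the untreated means were 213 and 248 CPM (adjusted p = 0.343). TIMP1, an inhibitor of matrix metalloproteases, was at 3287 to 3514 CPM in treated SK-N-AS and 1595 to 1813 CPM in treated GIMEN, from untreated means of 127 and 759 CPM. EEF1A1, a translation elongation factor, was at 7365 to 8400 CPM and 14657 to 18978 CPM, and was higher in GIMEN by 1.07 ± 0.15 on the log2 scale. ACTB, the cytoplasmic actin, was close, at 2327 to 2449 CPM in treated SK-N-AS and 2289 to 2557 CPM in treated GIMEN.

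Many genes were at the floor in both end states. A gene counts as at the floor when no library of the group has more than 3 counts, which corresponds to 0.124 to 0.145 CPM in treated SK-N-AS libraries and 0.171 to 0.189 CPM in treated GIMEN libraries. This held in all 7 treated libraries for 16256 of the 35237 genes of the table, among them 2958 of 18860 protein-coding genes (15.7%), and 14900 of the 16256 were also at the floor in all untreated libraries. Only CDH10, a cadherin of neuronal contacts, was at the floor in every treated library and at 1 CPM or more in every untreated one, with untreated means of 1.59 CPM in SK-N-AS and 3.1 CPM in GIMEN. Considering 1 line at a time, 36 genes at the floor in both end states had been at 1 CPM or more in all untreated SK-N-AS libraries, and 8 in all untreated GIMEN libraries.

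The opposite pattern, the floor in all 7 untreated libraries and 1 CPM or more in all 7 treated ones, was found for 4 genes: LAIR2, DDX39BP2, CCL3L3 and BCL2A1. LAIR2, a secreted collagen-binding receptor, had 0 counts in every untreated library. It was at 22.6, 33.1, 32.9 and 17.1 CPM in treated SK-N-AS and 11.9, 5.25 and 8.07 CPM in treated GIMEN, so the groups did not overlap. BCL2A1, an anti-apoptotic BCL2 relative, was at 4.68 to 8.59 CPM and 1.36 to 3.53 CPM. CCL3L3, a chemokine gene with near-identical copies, was at 35.7 to 55.5 CPM and 1.42 to 3.08 CPM. LAIR2 shares 20.6% of its 75-base words with other genes, and CCL3L3 has near-identical copies, so their counts are uncertain. DDX39BP2 is a pseudogene copy, whose count is uncertain too, although it shares 0% of its 184 words with other genes.

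A group of genes that set the untreated lines apart was close at 30 days. Of the 6853 genes that differed at least 2-fold in untreated cells, 392 (5.72%) were close at 30 days, a lower share than the 20.2% of all genes tested. The change of the line difference was called for each of these 392, which follows largely from choosing genes that were apart untreated and close at 30 days. The 10 close genes with the largest untreated difference were PDCD1LG2, SEMA7A, AXL, STC1, FLRT2, GPAT3, AKAP2, FOSL2, BMPR1B and FAR2. For 8 of them untreated GIMEN had the higher level, and for BMPR1B and FAR2 untreated SK-N-AS did. They were chosen for this pattern, so their values are a description. FLRT2 and AKAP2 were close and also had a small called difference at 30 days (0.29 ± 0.10 and 0.24 ± 0.10), and both calls were lost with all 22 libraries in the fit (0.33 and 0.28), without GIMEN replicate 2 (0.23 and 0.22), without SK-N-AS replicate 1 (0.26 and 0.21) and without SK-N-AS replicate 4 (0.23 and 0.18). The AKAP2 call was also lost with a replicate block, with no filter, with factors that left out the top 30 genes, and without GIMEN replicate 1 or 3, any untreated GIMEN library or untreated SK-N-AS replicate 2 (0.16 to 0.26).

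AXL, a receptor tyrosine kinase linked to the mesenchymal state, was at 114, 139, 131 and 104 CPM in treated SK-N-AS and 117, 125 and 112 CPM in treated GIMEN, and these ranges overlapped. Its untreated libraries were at 8.41 to 18.2 CPM in SK-N-AS and 557 to 591 CPM in GIMEN, so the treated levels lay between the untreated ones. FOSL2, an AP-1 subunit, was at 176 to 197 CPM and 200 to 218 CPM at 30 days, against 15.1 to 20.5 CPM and 300 to 318 CPM untreated. SEMA7A, a membrane-anchored semaphorin, was at 9.94 to 15.8 CPM and 8.9 to 14.3 CPM at 30 days, against 1.42 to 2.3 CPM and 125 to 131 CPM untreated.

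STC1, a secreted glycoprotein hormone, was at 2475, 2941, 2848 and 2306 CPM in treated SK-N-AS and 3025, 2653 and 2321 CPM in treated GIMEN, while its untreated means were 2.99 and 88.1 CPM. GPAT3, an acyltransferase of triglyceride synthesis, was at 56.1 to 66.6 CPM and 52.9 to 74.1 CPM, with at most 15.1 CPM in any untreated library. PDCD1LG2, a ligand of the immune receptor PD-1, was at 9.73 to 10.4 CPM and 8.57 to 9.95 CPM, which was below the untreated GIMEN range of 12.4 to 15.8 CPM and above the untreated SK-N-AS range of 0.0479 to 0.301 CPM. BMPR1B, a BMP receptor, was at 24.3 to 29.4 CPM and 17.5 to 31 CPM, with 29.1 to 35.2 CPM in untreated SK-N-AS and 2.38 to 3.79 CPM in untreated GIMEN. Its 30-day difference of 0.22 ± 0.16 SE became 0.51 and was called without GIMEN replicate 1 (edgeR adjusted p = 0.0053). FAR2, a fatty acyl reductase, was at 16 to 20 CPM and 14.9 to 21.5 CPM, between untreated GIMEN (3.84 to 4.24 CPM) and untreated SK-N-AS (31.6 to 38.4 CPM). AKAP2 shares 84.4% of its 75-base words with other genes, so its level is uncertain.

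**Figure D2:**
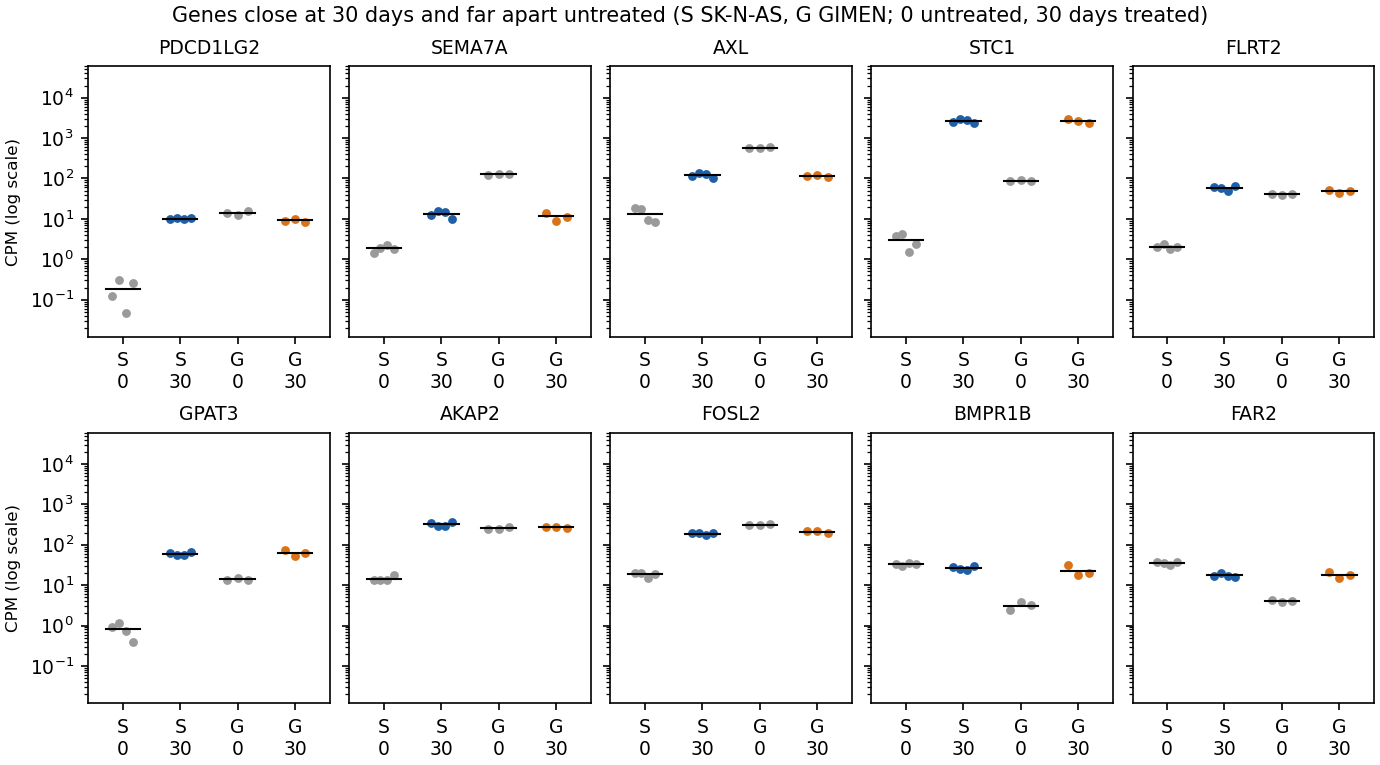
CPM (log10 axis) of genes that were close at 30 days and apart in untreated cells, one point per library, for SK-N-AS (S) and GIMEN (G) untreated (0) and at 30 days (30); bars are group means. The 30-day points of both lines lie within 1.5-fold of each other on average, as for AXL at 104 to 139 CPM and 112 to 125 CPM, and do not overlap for FOSL2 and AKAP2.

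**Figure D3:**
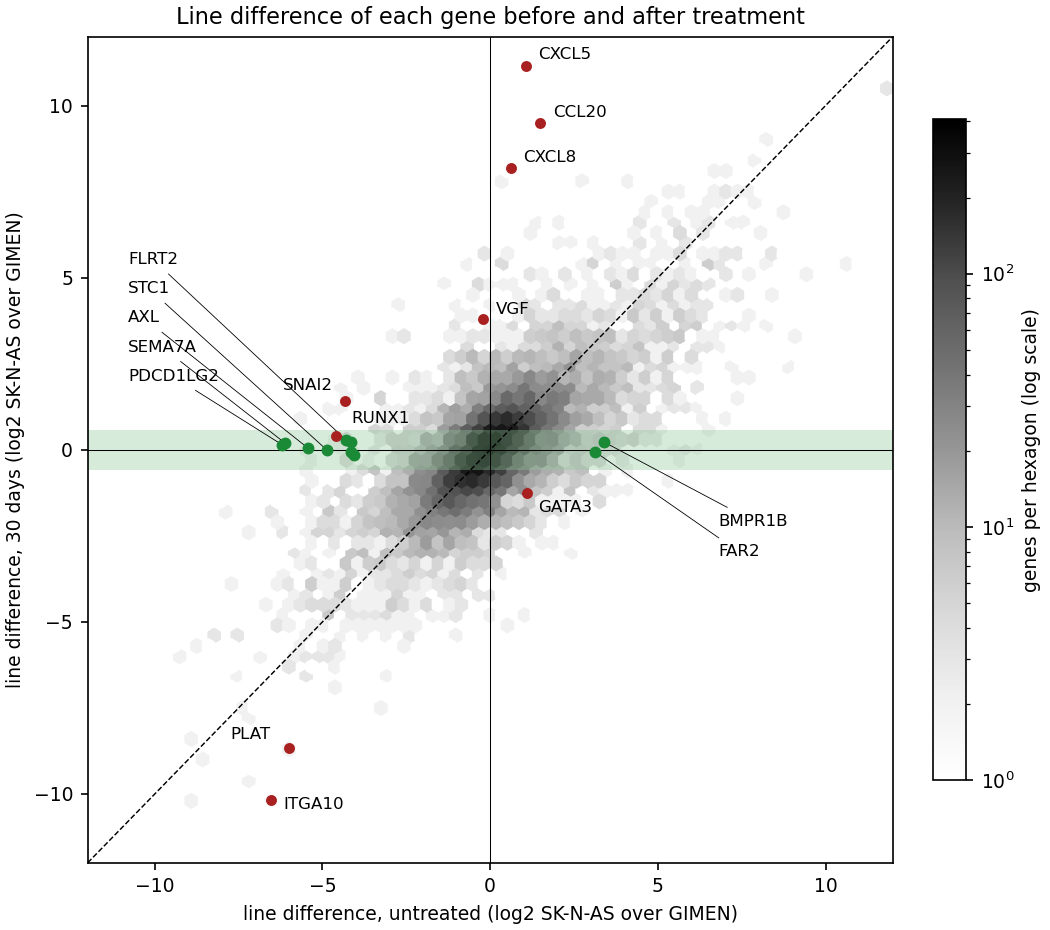
Line difference in untreated cells (horizontal) and at 30 days (vertical), both as log2 of SK-N-AS over GIMEN, for genes with counts in all 4 groups; shading gives the number of genes per hexagon on a log scale, the dashed line marks equal differences and the green band 1.5-fold either way. Green points such as AXL and STC1 lie inside the band and far from 0 on the horizontal axis, red points are other named genes, and genes beyond the axes, such as FN1, are not drawn.

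Mesenchymal transcription factors were found on both sides at 30 days. More adrenergic genes were higher in SK-N-AS than in GIMEN. Their summed level, which follows the most abundant members and does not describe the list as a whole, was higher in GIMEN. Of 28 tested mesenchymal transcription factors, 13 were higher in SK-N-AS, 11 were higher in GIMEN (85.7% called, against 72% of all genes) and 4 were close, with a median line difference of 0.07, against -2.24 untreated. The medians over all genes were 0.07 at 30 days and 0.04 untreated, with genes at the floor in a group set to their bound, as in all list medians here. RUNX1, a runt-domain factor, was at 81, 83.9, 77.5 and 87.1 CPM in treated SK-N-AS and 74.8, 54.6 and 57.5 CPM in treated GIMEN, from untreated means of 4.06 and 98.6 CPM. Its difference of 0.40 ± 0.13 lost its call without GIMEN replicate 2 or 3 (0.31 and 0.34). SNAI2, a repressor of epithelial genes, was higher in treated SK-N-AS (28.1 and 10.5 CPM, difference 1.43 ± 0.19 SE) and lower in untreated SK-N-AS (4.34 and 88.3 CPM), with a called change of 5.75 ± 0.27. FOSL1, an AP-1 subunit, also had opposite signs, 1.53 ± 0.22 at 30 days and -3.40 ± 0.22 untreated. PRRX1, a homeobox factor of mesenchyme, was lower in SK-N-AS at both times, by 0.54 and 2.84, and treated GIMEN replicate 1 (58.2 CPM) lay below the other two (139 and 131 CPM). The 30-day call of PRRX1 was lost without GIMEN replicate 2 or 3 (-0.33 and -0.39) and without SK-N-AS replicate 4 (-0.49), and also with upper-quartile factors (-0.43), with all 22 libraries in the fit (-0.49) and with GC and length offsets (-0.33).

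Among 27 tested adrenergic genes, 18 were higher in SK-N-AS and 4 in GIMEN (38% and 34% over all genes), 3 were close, and 16 of the 29 listed genes were at the floor in treated GIMEN. The median difference was 1.10 at 30 days and 5.76 untreated. The summed level of the list was 592 to 730 CPM in treated SK-N-AS and 1044 to 1158 CPM in treated GIMEN, against 6706 to 12534 CPM and 1290 to 1316 CPM untreated. PHOX2A, a homeobox factor of sympathetic neurons, was at 8.89, 10.2, 10.4 and 9.53 CPM in treated SK-N-AS and had at most 1 count in any GIMEN library, which makes it at least 53.6-fold higher. Untreated SK-N-AS had 146 CPM of PHOX2A on average. ISL1, a LIM homeobox factor, was at 5.35 to 7.15 CPM in treated SK-N-AS and 0.855 to 1.7 CPM in treated GIMEN, a difference of 2.18 ± 0.27 against 5.18 ± 0.26 untreated, and the change was called (edgeR adjusted p = 6.97e-06). GATA3 was higher in treated GIMEN (67 CPM against 28 CPM in SK-N-AS, difference -1.26 ± 0.08 SE) and higher in untreated SK-N-AS (131 CPM against 60.5 CPM in GIMEN), with a called change of -2.36 ± 0.12. In bulk RNA, fewer cells expressing a gene and less RNA per cell cannot be told apart.

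More synaptic and secretory genes were higher in SK-N-AS than in GIMEN. Of 26 tested synaptic and secretory granule genes, 15 were higher in SK-N-AS, 7 were higher in GIMEN and 3 were close (median 1.62, untreated 2.45). Over all genes tested, 38% were higher in SK-N-AS and 34% in GIMEN. SYP, a synaptic vesicle protein, was at 36.4 to 43.8 CPM in treated SK-N-AS and 1.24 to 1.95 CPM in treated GIMEN (4.70 ± 0.23 SE). SCG2, a granin of secretory granules, went the other way, with 84.2 to 105 CPM and 1025 to 1090 CPM (-3.50 ± 0.10 SE), and its untreated difference was 0.34 ± 0.10. CHGA, the granin used as a neuroendocrine marker, was at 16.9, 27.1, 25.1 and 12.1 CPM in treated SK-N-AS, where the untreated mean was 5206 CPM, and had 0 counts in treated GIMEN.

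Of 28 neuronal cytoskeleton genes, 14 were higher in SK-N-AS and 10 in GIMEN, against 38% and 34% over all genes (median 0.44, untreated 1.64). NEFM, a neurofilament subunit, was at 16.3 to 19.4 CPM in treated SK-N-AS and had 0 counts in all GIMEN libraries, at least 95.8-fold apart. The adhesion molecules L1CAM (155 to 193 CPM against 0.057 to 0.556 CPM) and NCAM1 (38.2 to 51.7 CPM against 0.063 to 0.124 CPM) were higher in SK-N-AS as well.

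More matrix and contractile genes were higher in GIMEN than in SK-N-AS, with large exceptions. Of 30 collagen and matrix genes, 16 were higher in GIMEN and 8 in SK-N-AS, against 34% and 38% of all genes (median -1.82, untreated -2.77). FN1, fibronectin, was at 2.25, 1.35, 1.57 and 1.99 CPM in treated SK-N-AS and 18013, 18315 and 16359 CPM in treated GIMEN, a difference of -13.25 ± 0.22 SE (edgeR adjusted p = 4.09e-16). It was also lower in untreated SK-N-AS, by 9.05, and the change of -4.19 ± 0.28 was called. COL1A1, a chain of type I collagen, was at 36.7 to 42.8 CPM and 814 to 1082 CPM, against untreated means of 548 and 9111 CPM. COL6A2, a chain of type VI collagen, had the opposite order, with 963 to 1006 CPM in treated SK-N-AS and 49.1 to 59.5 CPM in treated GIMEN (4.17 ± 0.11 SE). TNC, a matrix glycoprotein, had overlapping ranges of 468 to 764 CPM and 574 to 715 CPM.

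Of 14 tested matrix proteases and inhibitors, 6 were higher in SK-N-AS and 7 in GIMEN, against 38% and 34% of all genes. MMP1, an interstitial collagenase, was at 8807, 9991, 10342 and 8303 CPM in treated SK-N-AS and 559, 224 and 274 CPM in treated GIMEN. Its untreated means were 0.929 and 3.89 CPM, with the higher level in GIMEN, and the change of the line difference was 6.73 ± 0.52. PLAT, the tissue plasminogen activator, was at 5.32 to 8.91 CPM and 2374 to 3578 CPM (-8.66 ± 0.23 SE). MMP14, a membrane-bound metalloprotease, was at 27.9 to 51.2 CPM and 1275 to 2687 CPM, with GIMEN replicate 1 the highest.

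Of 19 contractile and actin genes, 13 were higher in GIMEN and 2 in SK-N-AS, against 34% and 38% of all genes (median -0.66, untreated -2.14). TAGLN, a calponin family protein of smooth muscle, was at 4.21 to 4.55 CPM in treated SK-N-AS and 2.65 to 3.93 CPM in treated GIMEN, although untreated GIMEN had 160 to 179 CPM and untreated SK-N-AS 2.63 to 4.43 CPM. Its 30-day difference of 0.40 ± 0.17 lost its call without any 1 of several libraries, among them GIMEN replicates 2 and 3 and each treated SK-N-AS replicate (0.26 to 0.41). The call was also lost with the 7 treated libraries alone (0.40), with all 22 libraries in the fit (0.44) and with GC and length offsets (0.36). Of 28 integrin and adhesion genes, 14 were higher in GIMEN and 8 in SK-N-AS, against 34% and 38% of all genes. ITGA10, a collagen-binding integrin chain, was at 0.821 to 1.63 CPM and 1125 to 1756 CPM. CD44, a hyaluronan receptor, was at 176 to 218 CPM and 881 to 1237 CPM (-2.40 ± 0.20 SE), against -6.30 ± 0.21 untreated.

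Cytokines and chemokines formed the list with the largest median at 30 days. Of 26 tested genes, 22 were higher in SK-N-AS and 2, CXCL12 and CSF1, were higher in GIMEN, while over all genes 38% and 34% were. The median difference was 4.71 at 30 days and -0.09 in untreated cells. Of the 34 listed genes, 14 were at the floor in treated GIMEN and 5 in both treated lines.

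CXCL8, a neutrophil chemokine, was at 1684, 1784, 1895 and 1589 CPM in treated SK-N-AS and 5.93, 5.13 and 6.81 CPM in treated GIMEN (8.19 ± 0.19 SE, edgeR adjusted p = 1.09e-14), with untreated means of 0.243 and 0.169 CPM. CCL20, a ligand of CCR6, was at 817, 803, 897 and 734 CPM and 1.14, 0.68 and 1.58 CPM (9.48 ± 0.25 SE), and no untreated library exceeded 0.127 CPM. The fitted folds were 292 for CXCL8 and 716 for CCL20, while their untreated differences did not pass the test (adjusted p = 0.406 and 0.304).

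PTGS2, the inducible cyclooxygenase, was at 389, 363, 319 and 364 CPM in treated SK-N-AS and had 0 counts in all 3 treated GIMEN libraries, at least 1972-fold apart. IL33, an alarmin of the interleukin-1 family, was at 192 to 218 CPM and had at most 2 counts per treated GIMEN library, at least 1136-fold apart. LIF, a cytokine that acts through gp130, was at 1340 to 2269 CPM and 203 to 317 CPM, and its difference turned from -4.70 ± 0.24 untreated to 2.88 ± 0.21. IL6, which uses the same receptor chain, was at 2.11 to 2.56 CPM and 0.378 to 0.855 CPM, with 0 counts in untreated SK-N-AS and a mean of 2.63 CPM in untreated GIMEN. NFKBIA, an inhibitor of NF-kB, had overlapping levels of 161 to 174 CPM and 93 to 206 CPM, with GIMEN replicate 1 the lowest.

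Many genes of this list are known targets of NF-kB, and the letters of their promoters are shown because the members lay together on the SK-N-AS side. The RefSeq sequence (GRCh38.p14, plus strand) of the 250 bases before the start is given for 4 members, with matches to the kappa-B-like motif GGNNTTTCC, on either strand, in capitals. The windows lie at chr4:73740319-73740568 for CXCL8, chr2:227813592-227813841 for CCL20, chr4:73869143-73869392 for CXCL1 and chr7:22726950-22727199 for IL6.
CXCL8: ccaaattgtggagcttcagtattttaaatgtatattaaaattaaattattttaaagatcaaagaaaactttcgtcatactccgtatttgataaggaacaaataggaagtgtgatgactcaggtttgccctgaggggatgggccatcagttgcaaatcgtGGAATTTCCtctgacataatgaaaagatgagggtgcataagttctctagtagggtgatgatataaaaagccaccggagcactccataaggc
CCL20: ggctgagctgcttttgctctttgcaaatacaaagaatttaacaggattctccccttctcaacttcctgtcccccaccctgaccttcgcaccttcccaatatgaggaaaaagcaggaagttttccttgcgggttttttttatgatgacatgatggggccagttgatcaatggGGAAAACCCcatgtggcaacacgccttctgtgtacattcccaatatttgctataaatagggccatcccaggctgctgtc
CXCL1: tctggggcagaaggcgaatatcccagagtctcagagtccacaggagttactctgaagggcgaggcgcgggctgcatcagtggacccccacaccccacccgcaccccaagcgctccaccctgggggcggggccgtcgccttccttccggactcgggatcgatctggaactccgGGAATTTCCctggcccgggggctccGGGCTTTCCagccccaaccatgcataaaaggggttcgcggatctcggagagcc
IL6: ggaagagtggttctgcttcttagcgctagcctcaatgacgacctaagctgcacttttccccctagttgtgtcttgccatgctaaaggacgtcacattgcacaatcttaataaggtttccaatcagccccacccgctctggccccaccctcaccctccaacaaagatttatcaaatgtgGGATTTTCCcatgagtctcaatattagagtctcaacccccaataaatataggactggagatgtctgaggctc
The match begins 91 bases before the start of CXCL8, 79 before that of CCL20 and 72 before that of IL6, and CXCL1 has 2 matches, 78 and 53 bases before its start. CXCL1, a chemokine like CXCL8, was at 2.03 to 4.51 CPM in treated SK-N-AS and had 0 counts in GIMEN. Of the 27 listed genes with a RefSeq promoter, 14 (51.9%) held the motif, against 682 of 11451 tested genes (5.96%) and 1497 of 27305 RefSeq promoters (5.48%). The AP-1 motif TGANTCA was found in 4 of the 27 (14.8%) and in 4.32% of tested genes. The promoters of NFKBIA, whose mean was 167 CPM in treated SK-N-AS and 166 CPM in treated GIMEN, and of CXCL10, which had too few counts to be tested, held the kappa-B-like motif too. These are matches of letters in a window and not shown binding sites. The 4 promoters shown all hold the kappa-B-like motif, while those of PTGS2, IL33, IL1A, IL1B and TNF, among others, do not. The list holds known NF-kB targets and was written with earlier results known, so its share with the motif is no independent result. The part of NF-kB was not tested.

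**Figure D4:**
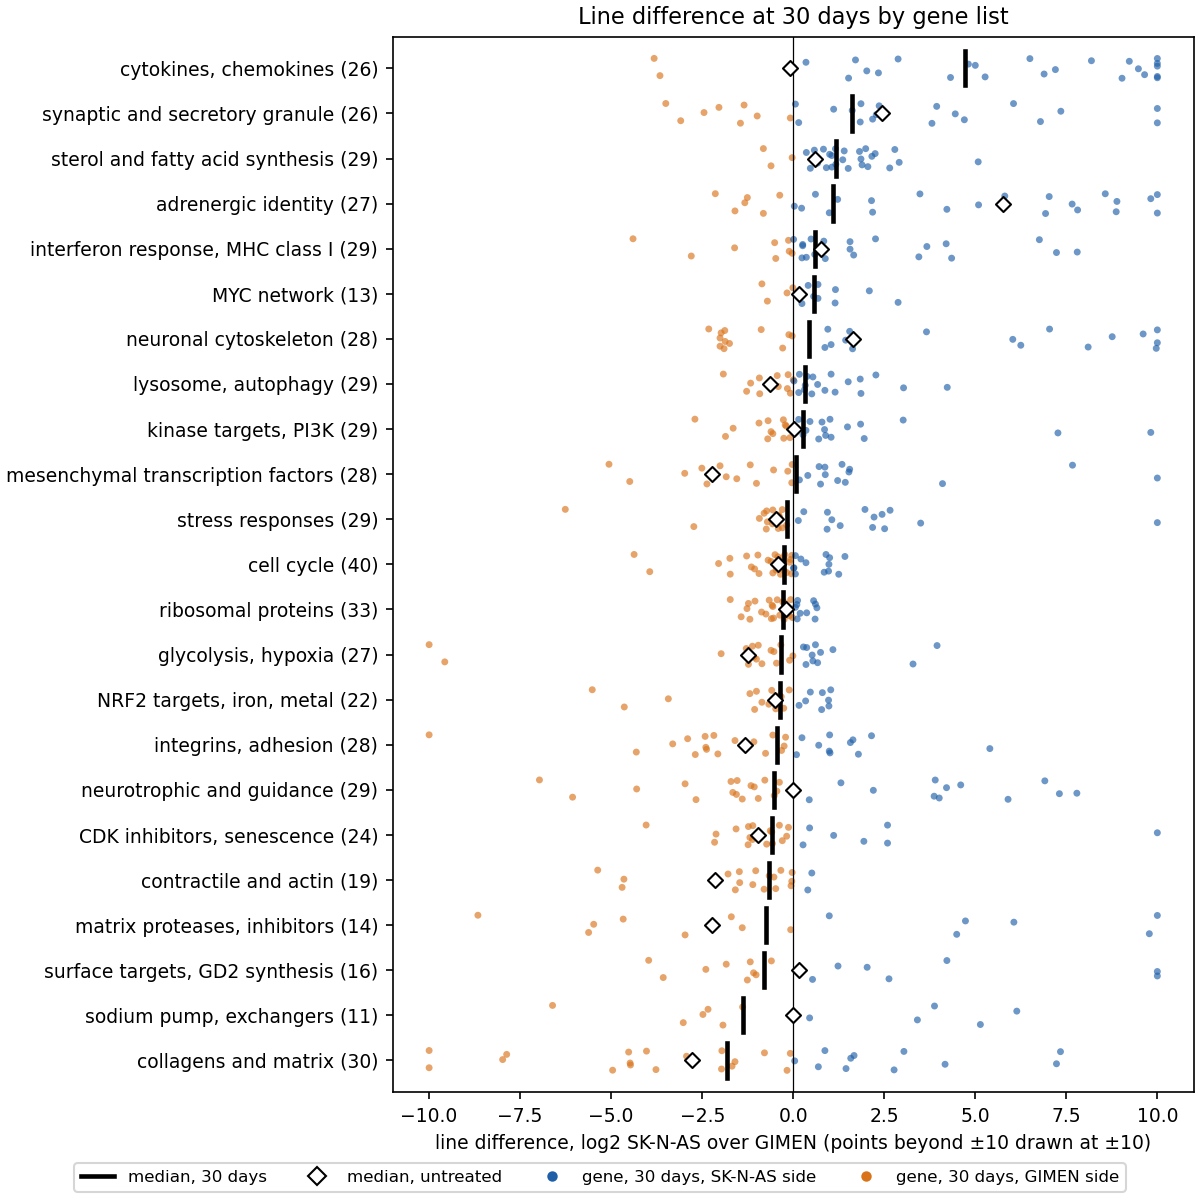
Line difference at 30 days (log2 of SK-N-AS over GIMEN, drawn at 10 or -10 where beyond) of each tested gene of the lists, one point per gene, with the number tested in parentheses, the list median at 30 days as a bar and the untreated median as a diamond. Cytokines have the highest median (4.71), and the medians of adrenergic genes and mesenchymal transcription factors are closer to 0 at 30 days than untreated.

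Antigen presentation and interferon genes leaned to SK-N-AS, with 18 of 29 higher there, 3 higher in GIMEN and 6 close (median 0.59, untreated 0.75). Together 72.4% of them were called, against 72% of all genes, of which 38% were higher in SK-N-AS and 34% in GIMEN. HLA-E, a class I heavy chain read by NK cells, was at 188, 186, 193 and 180 CPM in treated SK-N-AS and 0.969, 1.98 and 2.27 CPM in treated GIMEN (6.76 ± 0.20 SE). B2M, the light chain of class I molecules, was at 606 to 671 CPM and 406 to 450 CPM, a difference of 0.59 ± 0.13. HLA genes resemble each other and vary between cell lines, so their counts depend on how reads were assigned, which was not given.

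Proliferation genes were low in both end states. Of 40 cell cycle genes, 31 were under 0.1 of their untreated mean in SK-N-AS, 35 in GIMEN and 30 in both, against 734, 489 and 240 of all 16246 genes. The line difference was called for 22 of them, 14 of them on the GIMEN side and 8 on the other, and this share (55%) was below the 72% of all genes. MKI67, a marker of cycling cells, was at 0.417, 0.0966, 0 and 0.0414 CPM in treated SK-N-AS and 2.74, 1.98 and 1.95 CPM in treated GIMEN, from untreated means of 198 and 250 CPM. TOP2A, a topoisomerase of dividing cells, was at 0.29 to 0.58 CPM and 9.14 to 11.5 CPM. PCNA, the replication clamp, had overlapping levels of 33.1 to 36.6 CPM and 33.4 to 35.5 CPM, and so had the helicase subunit MCM3 at 46.2 to 51.3 CPM and 43.8 to 53.9 CPM.

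Of 24 CDK inhibitor and senescence genes, 15 were higher in GIMEN and 6 in SK-N-AS, against 34% and 38% of all genes. CDKN1A, the CDK inhibitor p21, was at 318, 370, 363 and 307 CPM in treated SK-N-AS and 515, 439 and 372 CPM in treated GIMEN, a difference of -0.38 ± 0.12 against -4.31 ± 0.13 untreated, and the 30-day call was lost without GIMEN replicate 1 (-0.25) and with upper-quartile factors (-0.27). CDKN2B, the inhibitor p15, was at 116 to 137 CPM and 359 to 400 CPM, while CDKN2A, which encodes p16 and ARF, was at 132 to 153 CPM and 35 to 41.2 CPM. CDKN1C, the inhibitor p57, was at 30 to 35.4 CPM in treated SK-N-AS and had 0 counts in treated GIMEN. GDF15, a stress-induced cytokine, was at 591 to 945 CPM and 1477 to 2175 CPM, a difference of -1.19 ± 0.19 that lost its call with all 22 libraries in the fit (-1.15).

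Sterol and fatty acid synthesis genes were higher in SK-N-AS almost throughout, with 26 of 29 tested genes higher there and 2, ACACA and ACLY, higher in GIMEN (median 1.17, untreated 0.59). The shares over all genes tested were 38% and 34%. HMGCS1, an early enzyme of the mevalonate pathway, was at 129 to 138 CPM in treated SK-N-AS and 17.3 to 18.8 CPM in treated GIMEN (2.91 ± 0.10 SE, untreated 0.87 ± 0.10). SQLE, the squalene epoxidase, was at 234 to 248 CPM and 31.3 to 36.6 CPM (2.79 ± 0.08 SE, untreated 1.34 ± 0.08). Serum, which supplies sterols, was absent from the SK-N-AS medium and present at 1% in the GIMEN medium, and its part in the result was not tested.

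Of 29 lysosomal and autophagy genes, 15 were higher in SK-N-AS and 7 in GIMEN (75.9% called, against 72% of all genes), and 9 were close, some of them also called. PSAP, the precursor of saposins, was at 2191 to 2421 CPM and 1859 to 2233 CPM, from untreated means of 511 and 530 CPM. CTSL, a lysosomal protease, had overlapping levels of 271 to 336 CPM and 247 to 389 CPM. CTSB, another lysosomal protease, was lower in SK-N-AS (712 to 823 CPM against 2610 to 3414 CPM), and SQSTM1, an autophagy adaptor, was higher there (2037 to 2329 CPM against 555 to 713 CPM).

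All 11 tested sodium pump and exchanger genes were called, 5 higher in SK-N-AS and 6 in GIMEN, while 72% of all genes tested were called. ATP1B1, a beta chain of the pump, was at 42.1, 36.1, 34 and 46.8 CPM in treated SK-N-AS and 237, 336 and 395 CPM in treated GIMEN (-3.02 ± 0.15 SE), from a smaller untreated difference of -0.47 ± 0.15, and the change of -2.55 ± 0.21 was called. Bufalin was given at 100 nM to SK-N-AS and 10 nM to GIMEN, so the lines had different doses of the pump inhibitor.

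Of 29 kinase and PI3K pathway genes, 12 were higher in SK-N-AS, 11 in GIMEN and 6 were close (median 0.27, untreated 0.01), so that 79.3% were called, near the 72% of all genes. EGFR, a receptor tyrosine kinase, was at 123 to 181 CPM in treated SK-N-AS and 522 to 579 CPM in treated GIMEN. INSR, the insulin receptor, was at 44.9 to 54.5 CPM and 0.124 to 0.504 CPM, with untreated means of 23.4 and 0.108 CPM. RET, the receptor of GDNF family ligands, was at 20.1 to 28.7 CPM in treated SK-N-AS and had at most 1 count per GIMEN library, at least 128-fold apart, from an untreated SK-N-AS mean of 552 CPM.

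Some genes were detected in 1 line only, with at least 10 CPM in each of its treated libraries and at most 3 counts in each of the other line. There were 143 such genes in SK-N-AS and 25 in GIMEN. GIMEN was at the floor in untreated cells too for 125 of the 143, and 72 of the 143 met the rule in untreated cells as well, as did 6 of the 25. TP53I11, a p53-inducible gene, was at 344 to 379 CPM in treated SK-N-AS and 229 to 269 CPM in untreated SK-N-AS, with at most 1 count in any GIMEN library. RBBP8NL had 241, 229, 226 and 220 CPM in treated SK-N-AS and 0 counts in treated GIMEN (at least 1260-fold), while no untreated library exceeded 0.0588 CPM. On the GIMEN side, RNF128, an E3 ubiquitin ligase, was at 76.4 to 89.3 CPM with 0 counts in treated SK-N-AS, and SRGN, the proteoglycan of secretory granules, was at 116 to 138 CPM with at most 1 count there.

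**Figure D5:**
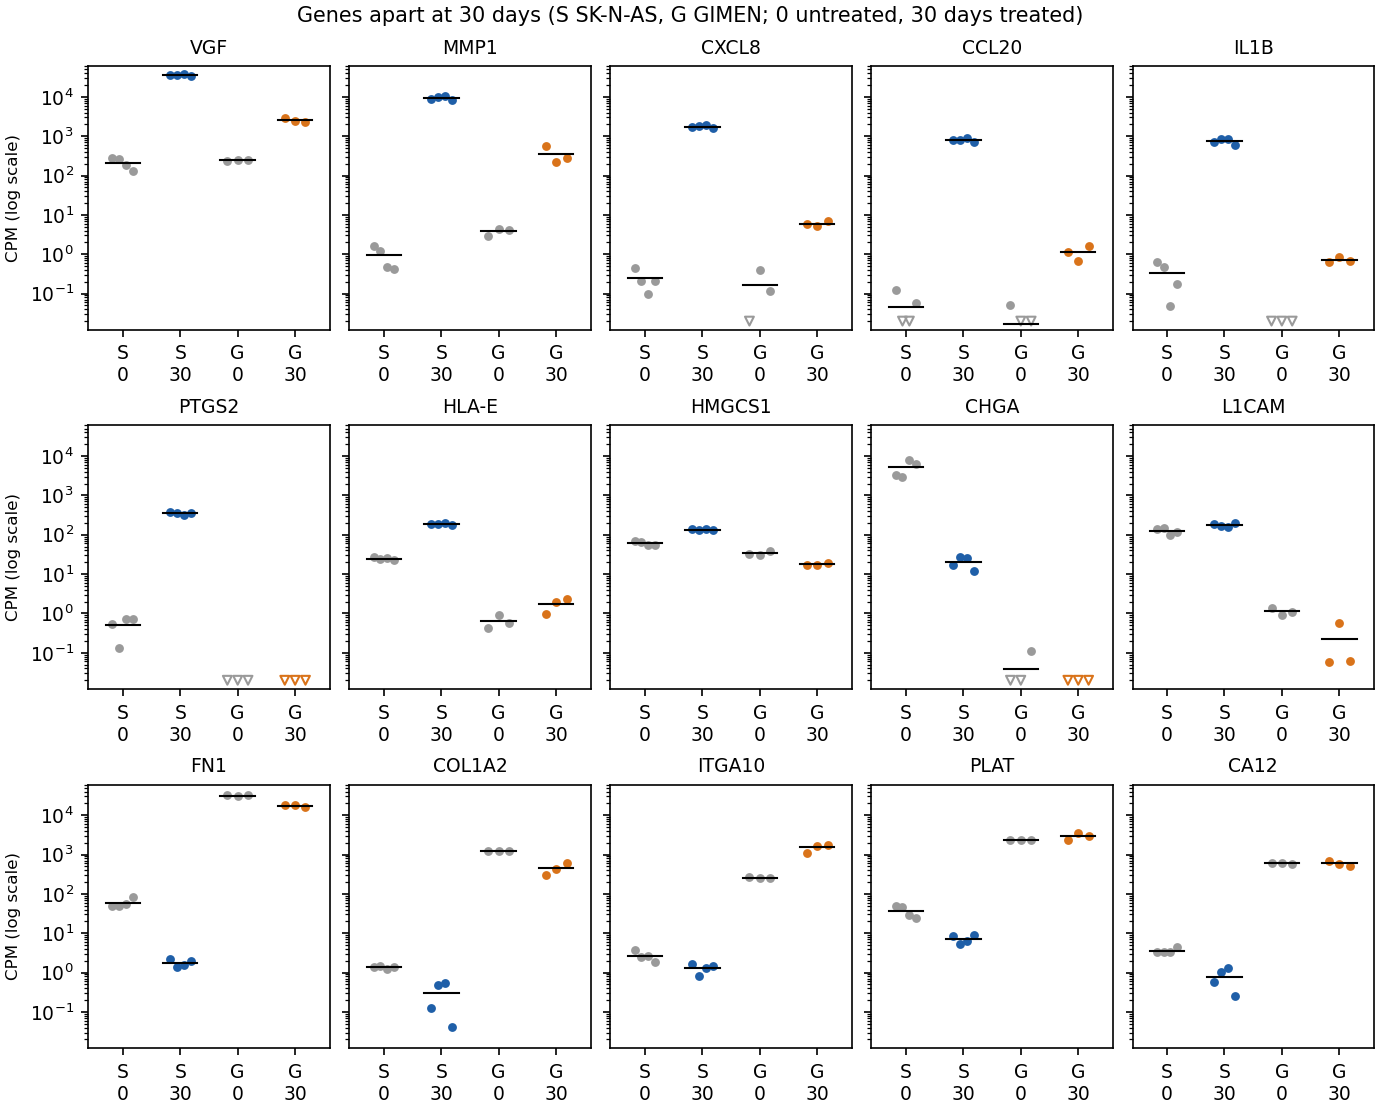
CPM (log10 axis) of genes that stood apart at 30 days, one point per library, for SK-N-AS (S) and GIMEN (G) untreated (0) and at 30 days (30); bars are group means and open triangles at the bottom mark 0 counts. FN1 and ITGA10 are high in GIMEN, and PTGS2 lies at 319 to 389 CPM in treated SK-N-AS and at 0 in every GIMEN library.

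In the order of the GENCODE 29 annotation, the genes that SK-N-AS expressed at 1 CPM or more at both times while GIMEN stayed at the floor included 2 runs of at least 3 neighbouring protein-coding genes. One held MAGEA3, CSAG2, MAGEA2B, CSAG1, MAGEA12 and MAGEA2, and the other CTAG1A, CTAG1B and CTAG2, all of them cancer-testis antigen genes, which are normally silent outside the germ line. MAGEA3 was at 52.3 to 62.8 CPM and CTAG2 at 122 to 142 CPM in treated SK-N-AS, with 0 counts of both in every GIMEN library. These families hold near-identical copies, so the share of each member is uncertain. No such run was found with SK-N-AS at the floor.

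The summed level of 16 leukocyte markers was 7.54 to 11.3 CPM in treated SK-N-AS and 6.87 to 9.23 CPM in treated GIMEN, and 9 of the 16 had too few counts to be tested. Endothelial markers summed to 5.56 to 9.07 CPM and 28.3 to 34.9 CPM, epithelial markers to 110 to 120 CPM and 139 to 164 CPM, and melanocyte markers to 11.4 to 11.7 CPM and 7.24 to 9.33 CPM. Schwann and glial markers summed to 315 to 322 CPM in treated SK-N-AS and 80.7 to 81.7 CPM in treated GIMEN, mostly from NES, an intermediate filament of neural progenitors (274 to 280 CPM and 22.7 to 28.2 CPM). Of the defining markers, PTPRC was at 0.285 to 1.28 CPM over the 7 treated libraries, EPCAM at 0.0414 to 0.855 CPM, SOX10 at 0 to 0.285 CPM and TYR at 0 to 0.063 CPM, while PECAM1 was at 3.04 to 5.72 CPM in treated SK-N-AS and 23.3 to 29.3 CPM in treated GIMEN. The part of other cell types in the line differences was not tested.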

How the data were processed

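Total RNA was treated with DNase and sequenced in pairs on a HiSeq X, per the labels. The authors deposited 1 table of raw read counts for 35237 genes, named by symbol, with 0 columns left unmapped. The aligner, counting tool, genome build and strand setting are not given in the sources used here, so reads of antisense and overlapping genes cannot be told apart.

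The model was fitted with edgeR 4.0.16 (R 4.3.3): filterByExpr (minimum count 10, minimum total 15), TMM scaling, and 1 quasi-likelihood model of the 14 untreated and 30-day libraries, with Benjamini-Hochberg adjusted p-values under 0.05 called. Reads carried no molecular identifiers, so floors cover counting error only, and folds against a group at the floor use 3 counts per library. Changes within a line were not tested. Gene types, lengths, order and 75-base words came from GENCODE 29. The script was tested on simulated data. Replicate numbers gave no clear pairing of the samples: same-number correlations of deviations were -0.0612 to 0.111. With so few libraries per group, these cannot show that no pairing existed. The members and all lists were chosen with earlier results of these data known. Genes were named by rank in each pattern and from the lists by role. Patterns were largest differences without overlap of groups, highest shared level, floor at 1 time only, 1 line only and, among close genes, largest untreated difference. XIST and Y-linked genes were left out, and a few other genes are not reported here. The settings tried were other scalings, filters, floors and margins, DESeq2 1.42.0, a replicate block, a GC and length correction and leaving out each library.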

Additional observations from a re-analysis of the deposited data

Results flagged for a closer look

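The change of the line difference from untreated to 30-day cells, tested as an interaction, was called for 8069 genes. Among genes that were close at 30 days, it was 6.35 on the log2 scale for PDCD1LG2, 6.34 for SEMA7A, 5.48 for AXL, 4.85 for STC1, 4.59 for FLRT2, 4.38 for AKAP2, 4.08 for GPAT3 and 3.91 for FOSL2, each with untreated GIMEN higher, and -3.18 for BMPR1B and -3.19 for FAR2, with untreated SK-N-AS higher. These 10 were chosen as the close genes with the largest untreated difference, so a large change follows from the choice.

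A single library stood apart in a group of 4 by Dixon's test for 10 of 259 groups of named genes. The groups share the same SK-N-AS libraries and are not independent, so this count clears no library. The GIMEN groups of 3 were not checked. Untreated SK-N-AS replicate 4 was the library concerned most often, and without it 8911 changes of the line difference were called, against 8069 with it. It had 84.6 CPM of FN1 (others 49.2 to 54.3), 83.3 CPM of EGFR (46.8 to 49.4), 296 CPM of TOP2A (205 to 219), 17.7 CPM of AKAP2 (13.2 to 13.8) and 300 CPM of COL6A2 (397 to 413). Untreated SK-N-AS replicate 1 had 40.4 CPM of MAGEA2B (19.4 to 20) and 0.304 CPM of SRPX2 (0 to 0.043). In treated SK-N-AS, replicate 3 had 26.3 CPM of PNLIPRP3 (20.9 to 21.2), replicate 2 had 2.56 CPM of IL6 (2.11 to 2.17) and replicate 1 had 4.55 CPM of TAGLN (4.21 to 4.27).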

How the results depend on the processing

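Of 183 alternative values of the counts of genes, 173 stayed within 1.5 times the reported count. The exceptions were counts under another definition: with a minimum of a 2-fold difference 3617 and 2857 genes were higher in SK-N-AS and in GIMEN, with a 2-fold margin 6713 genes were close, with the top 100 or 1000 ranks 58 or 617 genes were high in both lines, and 13 runs of neighbours with GIMEN at the floor had at least 2 genes. Genes detected in SK-N-AS only numbered 524 at a minimum of 1 CPM and 232 at a floor of 10 counts, and those in GIMEN only 91 and 56. Leaving out each library in turn gave 5876 to 6434 genes higher in SK-N-AS and 5253 to 5782 in GIMEN at 30 days, 5841 to 6336 and 5516 to 5967 in untreated cells, 2884 to 3666 close genes and 7361 to 8911 called changes. Upper-quartile factors moved the median of all genes by 0.109 (log2), and gave 6850 and 4952 calls. A fit with the replicate block, though the numbers gave no clear pairing of the samples, gave 6233 and 5565 calls. For the 148 named genes, 3477 of 3533 alternative values were called or not called as in the main fit, 42 lost a call and 14 gained one. With a call in either fit, 0 changed sign, and sign changes of genes called in neither fit were not counted. For the medians of fitted differences over 29 lists, 642 of 696 alternative values stayed within the standard deviation between libraries and 54 moved. The medians of the HOX, endothelial, epithelial, melanocyte, and Schwann and glial lists changed sign in some settings. Depth limits absence to 3 counts per library, and the doses and media that differ with the line limit what any difference can be attributed to.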

Other observations

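PTPRC, which encodes the leukocyte phosphatase CD45, was at 158 to 199 CPM in untreated SK-N-AS, 0.64 to 1.43 CPM in untreated GIMEN and 0.285 to 1.28 CPM in the treated libraries of both lines. The change of its line difference was called (-6.58 ± 0.51 SE, edgeR adjusted p = 5.1e-07). HOX genes, which pattern the body axis, were at the floor in both treated lines for 17 of 39 members, and of the 14 tested, 6 were higher in SK-N-AS and 4 in GIMEN at 30 days (71.4% called, against 72% of all genes). Of 27 glycolysis and hypoxia genes, 14 were higher in treated GIMEN and 10 in treated SK-N-AS, against 25 and 1 in untreated cells. The shares over all genes tested were 34% and 38% at 30 days, and 35.3% and 38.6% in untreated cells. B4GALT6, which makes the lactosylceramide that gangliosides are built on, was at 99.8 to 107 CPM in treated SK-N-AS and had at most 1 count per treated GIMEN library, while B4GALNT1, the GM2 and GD2 synthase, was at 4.4 to 4.64 CPM and 62.9 to 82.2 CPM.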
